A study of Mus musculus with 8 samples.

Results

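The kinetochore and centromere proteins described here are 34 genes taken by symbol from a table of 55385 mouse genes: the centromeric histone Cenpa with its loading factors, the constitutive centromere network, the Ndc80, Mis12, Knl1 and Ska complexes, the large proteins CENP-E and CENP-F, and Cenpj, a centriole protein that shares the naming series. All 34 symbols matched 1 row each, and 33 had enough reads to be tested. Cenpb did not pass the filter on low counts.

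The oocytes were grown in culture from 2 lines of C57BL/6 x 129/SvJ mouse embryonic stem cells. The sex-converted line, N2DsRed4XO63R2 in the labels, is an XX line made from male cells, and the native line, H18, was XX from the start. All groups share the Blimp1-mVenus and Stella-ECFP reporter transgenes, the passage through primordial germ cell-like cells, and aggregation with gonadal somatic cells of female embryos of day 12.5. GV oocytes, grown oocytes with an intact germinal vesicle, were collected on day 11 of growth culture. MII oocytes, arrested in the second meiotic metaphase, were collected after 16 hours of maturation and picked by their first polar body. Each of the 4 groups had 2 libraries of polyadenylated RNA, described as biological duplicates, from pools of 31 to 158 GV oocytes or 35 to 58 MII oocytes. Each arm is therefore 1 stem cell line, and oocytes within a library cannot be told apart.

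The kinetochore is the protein plate that joins a chromosome to spindle microtubules. Nucleosomes with the histone variant CENP-A mark its place, the constitutive centromere-associated network (CCAN) sits on them, and the Knl1, Mis12 and Ndc80 complexes, together called the KMN network, reach from there to the microtubule, where the Ska complex strengthens the hold. An oocyte builds these plates in both meiotic divisions with its chromatin largely silent in transcription, so it draws on mRNAs and proteins stored during growth. Stored mRNAs often carry the cytoplasmic polyadenylation element (CPE), a U-rich word near the poly(A) signal through which CPEB proteins control tail length and translation.

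The libraries hold mRNAs by their poly(A) tails, so the ends of the 3′ UTRs were read from the annotated transcripts of GENCODE M21 on GRCm38, 1 transcript a gene. The words searched on the sense strand of the last 100 bases were TTTTAT and TTTTAAT for the CPE and AATAAA and ATTAAA for the poly(A) signal, and matches of the CPE and the signal may share letters. A window of 30 bases is shown for 7 pairs of genes, each pair from 1 complex or 1 step of centromere assembly, because the first gene of each pair held a CPE and was higher at MII in at least 1 line while its partner held none and was lower in at least 1 line. The pairs were chosen after the values were seen. Capitals mark CPE words and poly(A) signals, T stands for U, and every window reads 5′ to 3′ along the mRNA.
Mis18a, chr16:90719330-90719359, minus strand: tcatTTTTATaataagagAATAAAgaattc
Oip5, chr2:119609977-119610006, minus strand: ttctctgctagaATTAAAgaatgtcacaga
Cenph, chr13:100759709-100759738, minus strand: ttacTTTTATaacttaaggAATAAAaagaa
Cenpk, chr13:104249580-104249609, plus strand: ttttactgtttaAATAAAgaatattgtttg
Cenpn, chr8:116941437-116941466, plus strand: gatcTTTTATccatggcacactgaaactga
Cenpl, chr1:161086296-161086325, plus strand: ccaatttagtcaAATAAActtacctaaaat
Cenpu, chr8:46579978-46580007, plus strand: ataagagataATTAAAcatTTTTAATctgt
Cenpq, chr17:40923065-40923094, minus strand: attatttttaaaAATAAAaaaaaaaatgcc
Ndc80, chr17:71496156-71496185, minus strand: agtaTTTTATccccaaattatgataatatg
Spc25, chr2:69193901-69193930, minus strand: tctgcttgtgttAATAAActtgcttgttgt
Ska2, chr11:87124575-87124604, plus strand: acctTTTTAATgtatttgcatccacttacc
Ska3, chr14:57806567-57806596, minus strand: tacataatgtaaAATAAAtgattttctgag
Cenpe, chr3:135273521-135273550, plus strand: aaaaTTTTAATctttccagatgggtataac
Cenpf, chr1:189640609-189640638, minus strand: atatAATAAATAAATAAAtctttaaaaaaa

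From GV to MII the members moved in both directions, as all tested genes did, and several complexes held both. In the native line 13 of 33 tested members rose and 16 fell (edgeR quasi-likelihood test, Benjamini-Hochberg adjusted p under 0.05), where 29.6% of all 14929 tested genes rose and 35.7% fell. In the sex-converted line 14 rose and 15 fell, beside 29.3% and 36.2% of all genes. The same 13 members rose and the same 14 fell in both lines, beside 26.9% and 32% of all genes, and no member rose in one line and fell in the other. The fold change was 2-fold or more in both lines for 22 of the 33, beside 52.9% of all genes. The 4 GV libraries did not overlap the 4 MII libraries for 30 members, where 72.4% of all genes had no overlap.

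The median log2 fold change of the members was -0.66 in the native and -0.52 in the sex-converted line, and that of all tested genes was -0.31 and -0.35. Without regard to sign the medians were 1.50 and 1.52 for the members and 1.63 in both lines for all genes. The fold changes had the same sign in the lines for 32 of the 33 members, Nsl1 being the exception. All values are relative to other mRNAs: TMM factors lay between 1.33 and 1.43 in GV and between 0.714 and 0.733 in MII libraries, and on library totals alone the median of all genes moved to -1.22 and -1.28. On that scale 6 members rose and 17 fell in the native and 7 rose and 18 fell in the sex-converted line. Among the calls over all genes there, 24.6% and 23.4% were rises and the rest were falls. Hjurp changed sign in both lines, Cenpw in both, and Mis18a, Cenpc1, Ndc80 and Nsl1 in the native line. A change in mRNA amount and a change in the length of its tail cannot be told apart in poly(A)-selected RNA.

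**Figure D1:**
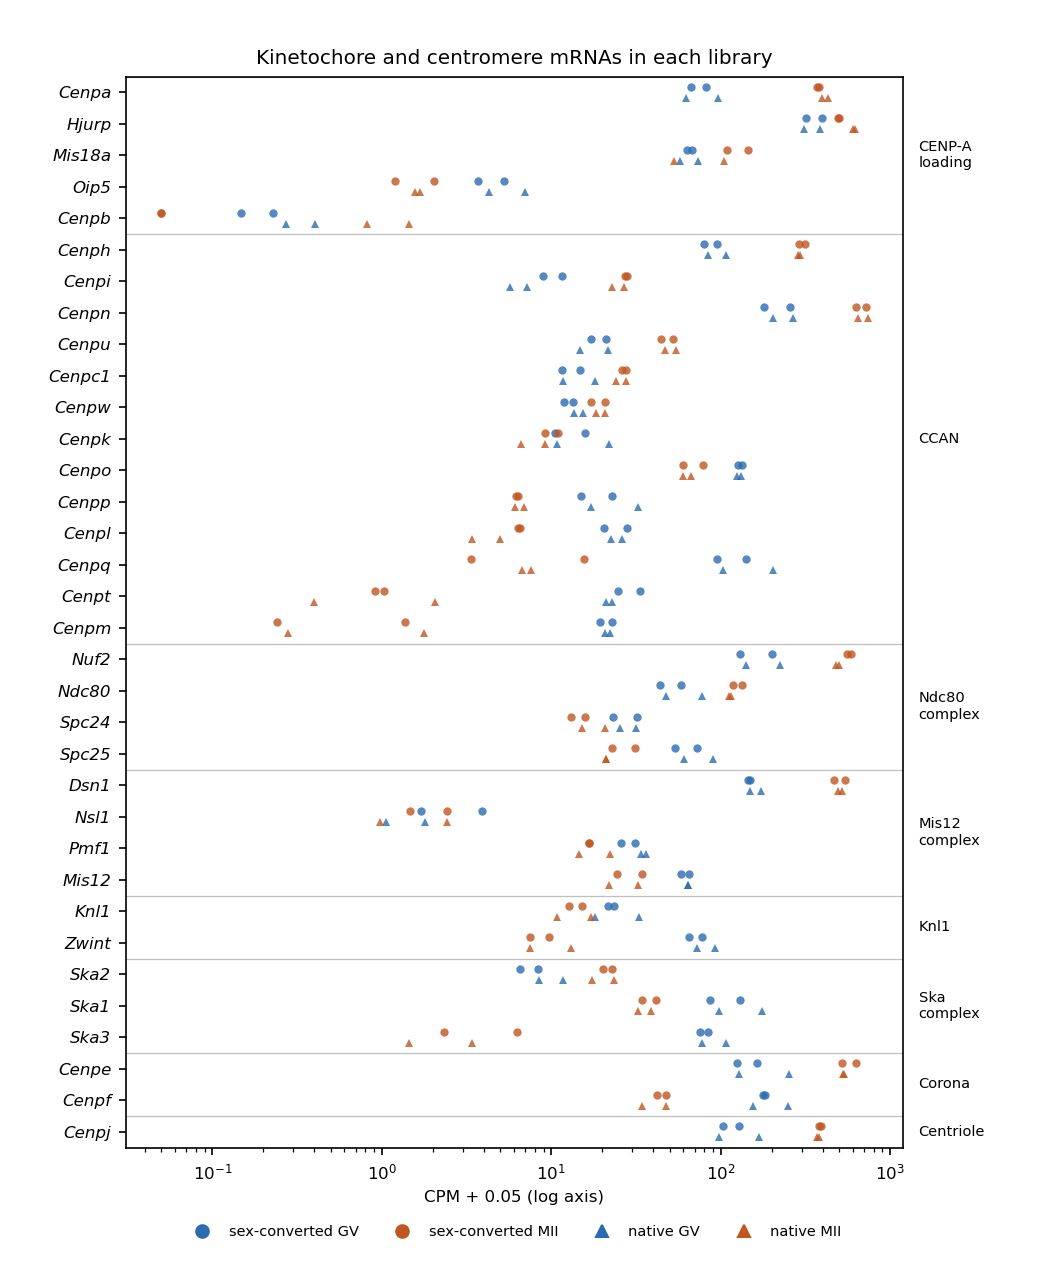
CPM of each member in each of the 8 libraries, on a log axis after adding 0.05, ordered within each role group by the mean fold change. Circles are the sex-converted and triangles the native line, blue GV and orange MII. Stages lie apart for 30 of the 33 tested members, with orange on the right for Cenpa, Nuf2, Dsn1 and Cenpe and on the left for Ska3, Cenpm, Cenpt and Cenpq; the order of Hjurp, Mis18a, Cenpc1, Cenpw, Ndc80 and Nsl1 flips on library totals alone in at least 1 line.

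Across the members the libraries held 34542 to 55249 reads, 0.321% to 0.408% of their totals of 10306471 to 14999003. Oocyte markers summed to 15268 to 18020 CPM at GV and 16865 to 20490 CPM at MII. Markers of granulosa and cumulus cells summed to 56.4 to 78.1 CPM at GV and 116 to 138 CPM at MII, led by Kitl, Cyp19a1 and Nr5a2, while Foxl2 and Amh stayed at or under 0.955 CPM and Fshr was at 0 in the MII libraries. Of the 8 tested of these 14 genes, 3 rose and 1, Fshr, fell in each line. The log2 fold changes of those that rose, native then sex-converted, were 3.19 and 2.03 for Has2, 2.44 and 2.49 for Kitl and 1.70 and 1.93 for Cyp19a1. Stromal markers summed to 1.34 to 1.48 CPM at GV and to 14.7 to 87.6 CPM at MII, highest in the libraries numbered 1 of both lines, with Col1a2 and Lum at 0 throughout. Of these, Spp1 was at 0 at GV and read 6.13 to 34.3 CPM at MII, Vim went from 0.0487 to 0.223 CPM to 1.43 to 16.7 CPM, and Thbs1 from 0 to 0.585 CPM to 2.19 to 39.9 CPM; all 3 passed as higher in both lines. Genes of dividing cells, which oocytes also express, summed to 761 to 857 CPM at GV and 1180 to 1349 CPM at MII, but did not move together: in both lines Pcna, Mcm2 and Rrm2 rose and Top2a, Mcm5 and Tyms fell. The part of somatic RNA in the members' values was not tested. At GV, sex-converted replicate 2 and native replicate 1 stood apart from their partners in the same direction: 20 of 33 members (60.6%) were higher in both of them, beside 36.2% of all genes, and 8 members (24.2%) were lower in both, beside 35.1%.

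Among the genes of centromere chromatin and CENP-A loading, the histone gene itself changed most. Cenpa, the H3 variant that marks the centromere, stood at 81.9 and 66.7 CPM in sex-converted GV, 62.3 and 96.4 CPM in native GV, 367 and 381 CPM in sex-converted MII and 427 and 396 CPM in native MII libraries. Every MII library lay above every GV library by a wide gap. Cenpa had the highest fold change of the members that rose, with a log2 fold change of 2.38 (SE 0.23, adjusted p = 6.04e-06) in the native and 2.33 (SE 0.23, adjusted p = 6.85e-06) in the sex-converted line.

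The factors that place CENP-A did not move together. Hjurp, the chaperone that carries CENP-A to the centromere, read 397, 318, 310.4 and 383 CPM in the 4 GV libraries (sex-converted 1 and 2, native 1 and 2, the order used from here on) and 495, 499.5, 605 and 618 CPM at MII. Its stages did not overlap, and the native MII libraries lay above the sex-converted ones, a line difference that did not pass (edgeR adjusted p = 1). Hjurp rose by 0.82 (SE 0.18, adjusted p = 0.00179) on the log2 scale in the native line. In the sex-converted line it was 0.47 (adjusted p = 0.0336), a call lost with DESeq2 (adjusted p = 0.0618) and without any 1 of 5 libraries (adjusted p from 0.0566 to 0.185). On library totals alone its values were -0.095 and -0.47. Mis18a, part of the complex that licenses new CENP-A, read 67.7, 63.5, 57.8 and 73.7 CPM at GV and 144, 109, 52.9 and 105 CPM at MII. The lowest of all 8 values was native MII replicate 1, so the native stages overlapped. It rose in the sex-converted line, by a log2 fold change of 0.95 (SE 0.30, adjusted p = 0.0168), and did not pass in the native line at 0.26 (SE 0.30, adjusted p = 0.463), which became -0.34 without native MII replicate 2. The difference between the lines in this change was 0.69 (95% interval -0.25 to 1.62, adjusted p = 1). The sex-converted call was lost without either sex-converted GV library (adjusted p = 0.0525 and 0.0653) or without sex-converted MII replicate 1 (adjusted p = 0.118).

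Oip5, which encodes the second Mis18 subunit, Mis18 beta, read 3.64, 5.21, 6.91 and 4.22 CPM at GV and 1.97, 1.14, 1.53 and 1.62 CPM at MII. All MII values lay below all GV values, on 12 to 18 reads a library at MII. It fell, at -1.82 (SE 0.48, adjusted p = 0.00599) and -1.52 (SE 0.48, adjusted p = 0.0159) on the log2 scale. The call was lost in the native line without native GV replicate 1 (adjusted p = 0.0567) and in the sex-converted line without sex-converted GV replicate 2 or MII replicate 2 (adjusted p = 0.0958 and 0.123). The 2 genes for the Mis18 subunits are the first pair of windows above: Mis18a had a CPE starting 44 bases from its annotated end, and Oip5 had none in its last 100 bases but 1 in its last 200. Oip5 shares 9.67% of its exon bases with Nusap1 on the opposite strand.

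Cenpb, which binds a short DNA box in the minor satellite repeats, was close to absent. It had 3 and 2 reads in sex-converted GV, 4 and 5 in native GV, 0 and 0 in sex-converted MII and 8 and 12 in native MII libraries. Against a floor of 3 reads over the sex-converted MII group, the 20 native MII reads made a level 6.85-fold higher. Leaving out 1 MII library put this ratio between 3.19 and 9.10. The floor covers counting error in the sex-converted group alone. The 20 native reads had a 95% counting interval of 12.2 to 30.9 reads, which the ratio leaves out. Cenpb was singled out after its values were seen. It was not called between lines at MII with no filter on low counts (adjusted p = 0.326) or with DESeq2 (adjusted p = 1).

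The CCAN, the platform of the inner kinetochore, had members in both directions, as did all tested genes. Of its 13 members here, 5 rose in both lines (Cenpc1, Cenph, Cenpi, Cenpn and Cenpu), beside 26.9% of all genes. Another 6 fell in both (Cenpl, Cenpm, Cenpo, Cenpp, Cenpq and Cenpt), beside 32% of all genes. Cenpk fell in the native line alone and Cenpw did not pass in either. Cenpc1, the gene of CENP-C, which links CENP-A nucleosomes to the Mis12 complex, read 11.5, 14.7, 18.2 and 11.7 CPM at GV and 26.1, 27.5, 24.0 and 27.5 CPM at MII. The stages did not overlap. It changed by 0.78 (SE 0.29, adjusted p = 0.0317) on the log2 scale in the native and by 1.03 (SE 0.29, adjusted p = 0.00837) in the sex-converted line, and -0.12 and 0.10 on library totals alone. The native call was lost without native GV replicate 2 or without any 1 of the 4 MII libraries (adjusted p from 0.0514 to 0.215), and the sex-converted call without sex-converted GV replicate 1 (adjusted p = 0.0681).

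In the CENP-H-I-K-M group, which holds the network together, the members went in opposite directions. Cenph read 79.3, 94.6, 108 and 83.7 CPM at GV and 289.9, 315, 292 and 287 CPM at MII, and Cenpm read 19.3, 22.8, 20.6 and 22.2 CPM at GV and 1.31, 0.190, 1.72 and 0.231 CPM at MII. Neither gene's stages overlapped. Cenph rose by a log2 fold change of 1.60 (SE 0.19, adjusted p = 2.95e-05) and 1.80 (SE 0.19, adjusted p = 1.33e-05), with Cenpi beside it at 1.95 and 1.43. Cenpm fell, at -4.38 (SE 0.66, adjusted p = 0.000141) and -4.84 (SE 0.69, adjusted p = 9.47e-05).

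At MII, Cenpm rested on 12 and 2 reads in the sex-converted and 18 and 2 reads in the native line. Its reads were more in the libraries numbered 1, in which the stromal markers were also highest, and a link was not tested. Summed over 2 libraries a stage, GV stood 29.8-fold (95% counting interval 17.6 to 54.7) and 20.4-fold (13.1 to 33.6) above MII. Without the MII library numbered 1 the log2 fold changes were -6.49 in the native and -6.73 in the sex-converted line, and without the other they were -3.66 and -3.99. Cenpk read 10.5, 15.7, 21.8 and 10.8 CPM at GV and 11.0, 9.13, 6.59 and 9.14 CPM at MII, with overlap in the sex-converted line. Its log2 fold change of -1.06 (SE 0.39, adjusted p = 0.0336) in the native line became -0.43 (adjusted p = 0.401) without native GV replicate 1 and -0.84 (adjusted p = 0.165) without native MII replicate 1, and in the sex-converted line it was -0.39 (SE 0.39, adjusted p = 0.393). The change did not pass as different between the lines (0.67, 95% interval -0.53 to 1.87, adjusted p = 1).

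Cenpn and Cenpl, whose products form the dimer that reads the CENP-A nucleosome, parted widely. Cenpn read 181, 256, 268 and 203 CPM at GV and 627, 719, 736 and 644 CPM at MII, a log2 fold change of 1.55 (adjusted p = 7.93e-05) and 1.62 (adjusted p = 5.75e-05). Cenpl fell, with log2 fold changes of -2.53 (adjusted p = 4.17e-05) and -1.91 (adjusted p = 0.000241), from 20.4 to 27.9 CPM at GV to 3.36 to 6.47 CPM at MII. Per kilobase of exon, Cenpn was the highest of all members in each group, at 66.4 ± 16.2 and 71.5 ± 13.8 CPM per kb at GV and 204 ± 19.7 and 209.5 ± 19.7 CPM per kb at MII (SD, n = 2, sex-converted then native). The level of Cenpn over that of Cenpl, per kb, lay between 11.2 and 21.8 in the GV and between 171 and 332 in the MII libraries.

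In the CENP-T-W pair of histone-fold proteins, a second anchor of the Ndc80 complex, Cenpt fell from 20.9 to 33.4 CPM at GV to 0.347 to 2.01 CPM at MII, with log2 fold changes of -4.15 (adjusted p = 3.47e-05) and -4.97 (adjusted p = 1.32e-05). Cenpt stood on 3 to 21 reads a library at MII, and without native MII replicate 1 or 2 the native value was -5.95 or -3.47. Cenpw read 11.8 to 15.3 CPM at GV and 17.2 to 20.7 CPM at MII, with log2 fold changes of 0.43 (adjusted p = 0.17) and 0.59 (adjusted p = 0.0664), which were -0.48 and -0.34 on library totals alone. Per kb, Cenpt was above Cenpw in every GV library, by 1.59- to 3.27-fold, and below it in every MII library, by 7.88- to 51.4-fold.

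In the CENP-O-P-Q-U group, Cenpu, which recruits the kinase Plk1, rose alone. It read 14.7 to 21.6 CPM at GV and 44.6 to 54.1 CPM at MII, with log2 fold changes of 1.47 (adjusted p = 0.000496) and 1.35 (adjusted p = 0.00088). Its partners Cenpo (-1.01 and -0.91), Cenpp (-1.94 and -1.59) and Cenpq (-4.43 and -3.66) fell in both lines. Cenpq went from 94.9 to 205 CPM at GV to 3.33 to 15.6 CPM at MII, and its sex-converted value was -5.15 without MII replicate 1 and -2.93 without MII replicate 2. Its native value was -3.83 without native GV replicate 1. Cenpu shares 26.7% of its exon bases with Primpol, Cenpo 19% with Adcy3 and Cenpp 12.3% with Ippk, all on opposite strands, and no source used here says whether the counting took strand into account.

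**Figure D2:**
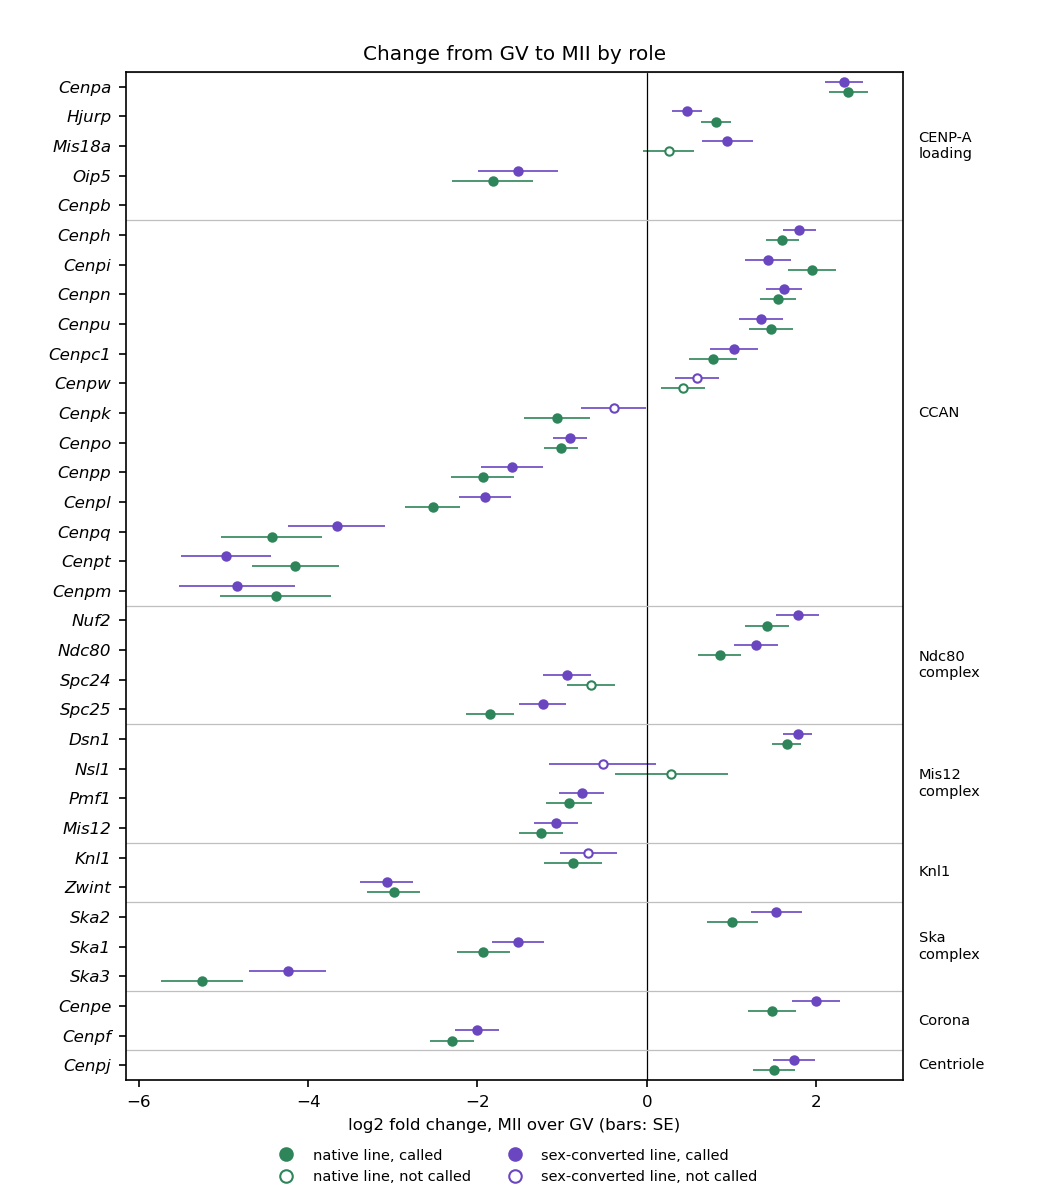
Log2 fold change from GV to MII of each member in the native (green) and sex-converted (purple) line with its standard error as bars, grouped by role; filled points passed the adjusted p threshold of 0.05, open points did not, and Cenpb was not tested. Points of 1 complex lie on both sides of 0 in the CCAN, Ndc80, Mis12 and Ska groups and for Cenpe against Cenpf; on library totals alone Hjurp, Mis18a, Cenpc1, Cenpw, Ndc80 and Nsl1 change sign in at least 1 line.

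In the Ndc80 complex, the rod that binds the microtubule, the 2 genes of the microtubule-binding end rose and the genes of the centromere-facing end were lower. Ndc80 read 43.8, 58.6, 77.0 and 47.7 CPM at GV and 118, 133, 115 and 112 CPM at MII, and Nuf2, its partner in the head, read 130.4, 202, 225 and 140.1 CPM at GV and 554, 589.6, 480.4 and 499 CPM at MII. In neither did the stages overlap. Ndc80 rose by a log2 fold change of 0.86 (SE 0.25, adjusted p = 0.0111) in the native and 1.29 (SE 0.26, adjusted p = 0.001) in the sex-converted line, but its native value was 0.56 (adjusted p = 0.0824) without native GV replicate 2 and -0.042 on library totals alone. Nuf2 rose by 1.42 (SE 0.26, adjusted p = 0.000509) and 1.78 (SE 0.26, adjusted p = 0.000107).

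Spc25 and Spc24 encode the dimer that docks onto the Mis12 complex and CENP-T. Spc25 read 54.0, 72.5, 90.3 and 60.4 CPM at GV and 22.7, 31.2, 21.0 and 20.9 CPM at MII, and fell, at -1.85 (SE 0.28, adjusted p = 0.000158) and -1.23 (SE 0.28, adjusted p = 0.00225) on the log2 scale. Spc24 read 32.1, 23.1, 25.5 and 31.5 CPM at GV and 15.8, 13.0, 20.7 and 15.2 CPM at MII. Its stages did not overlap, yet it passed in the sex-converted line alone, at -0.94 (SE 0.29, adjusted p = 0.0136) against -0.66 (SE 0.28, adjusted p = 0.0599), with a difference between the lines of -0.28 (95% interval -1.16 to 0.61, adjusted p = 1). That call was lost without sex-converted GV replicate 1 or MII replicate 2 (adjusted p = 0.107 and 0.0981). Per kb, the highest of the 4 subunits was 3.01 to 3.59 times the lowest in the GV libraries and 11.5 to 18.4 times in the MII libraries.

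The Mis12 complex ties the inner to the outer plate. Dsn1, the subunit that Aurora B phosphorylates to open the complex to CENP-C, read 149, 145, 149 and 172 CPM at GV and 467, 542, 517 and 493 CPM at MII. Mis12 read 64.7, 58.5, 64.4 and 64.0 CPM at GV and 24.3, 34.4, 21.9 and 32.3 CPM at MII. The stages of both genes lay far apart, in opposite order. Dsn1 rose by a log2 fold change of 1.65 (SE 0.17, adjusted p = 9.87e-06) and 1.78 (SE 0.17, adjusted p = 6.1e-06), and Mis12 fell, at -1.25 (SE 0.26, adjusted p = 0.00149) and -1.07 (SE 0.26, adjusted p = 0.00384). Pmf1 fell with Mis12, at -0.92 (adjusted p = 0.0109) and -0.77 (adjusted p = 0.0263), but its call was lost without native MII replicate 2 (adjusted p = 0.0915) in the native line and without sex-converted GV replicate 2, MII replicate 1 or MII replicate 2 (adjusted p = 0.152, 0.0966 and 0.101) in the other. Nsl1 had 8 to 65 reads a library, its stages overlapped, and its log2 fold changes of 0.29 and -0.52 did not pass (adjusted p = 0.717 and 0.482).

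Knl1, the scaffold on which the checkpoint kinase Bub1 is loaded, read 23.4, 21.5, 33.0 and 17.9 CPM at GV and 15.1, 12.7, 17.1 and 10.8 CPM at MII. Stages did not overlap, by a margin of 17.1 against 17.9 CPM. It fell in the native line, with a log2 fold change of -0.87 (SE 0.34, adjusted p = 0.0431), and did not pass in the sex-converted line at -0.69 (SE 0.34, adjusted p = 0.0961); the difference between the lines was 0.18 (95% interval -0.88 to 1.24, adjusted p = 1). The native value was -0.35 (adjusted p = 0.412) without native GV replicate 1 and -0.60 (adjusted p = 0.228) without native MII replicate 2. It was -0.88 (adjusted p = 0.0507) without sex-converted MII replicate 2. Zwint, the Knl1-binding protein that brings in the Rod-Zw10-Zwilch complex, read 64.9, 78.0, 91.9 and 71.9 CPM at GV and 9.63, 7.42, 13.1 and 7.41 CPM at MII, and fell, at -2.99 (SE 0.31, adjusted p = 1.02e-05) and -3.07 (SE 0.31, adjusted p = 9.23e-06) on the log2 scale. Zwint was 5.35 to 7.72 times Knl1 per kb at GV and 1.12 to 1.47 times at MII, so these partners came closer in level while those of the Ndc80 complex moved apart.

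The Ska complex follows the microtubule tip. Ska2 read 6.50, 8.28, 11.8 and 8.44 CPM at GV and 20.0, 22.7, 17.4 and 23.4 CPM at MII, and Ska3 read 75.6, 83.7, 107 and 77.0 CPM at GV and 6.24, 2.28, 3.34 and 1.39 CPM at MII. Per kb, Ska3 lay at 27.9 to 39.6 and Ska2 at 1.99 to 3.59 CPM per kb at GV, and at MII the order was turned over, with Ska3 at 0.513 to 2.31 and Ska2 at 5.31 to 7.14 CPM per kb. Ska2 rose by a log2 fold change of 1.01 (SE 0.30, adjusted p = 0.0122) and 1.53 (SE 0.31, adjusted p = 0.00106), the first lost without native GV replicate 2 or MII replicate 2 (adjusted p = 0.0884 and 0.105). Ska3 had the lowest fold change of any member in the native line, -5.25 (SE 0.48, adjusted p = 4.49e-06), and -4.24 (SE 0.45, adjusted p = 1.23e-05) in the sex-converted line. At MII Ska3 was left with 57, 24, 35 and 12 reads, more in the libraries numbered 1, without which the values were -6.05 and -5.12. Ska1 fell, at -1.93 (adjusted p = 0.000231) and -1.52 (adjusted p = 0.00115) on the log2 scale. Ska2 shares 10.1% of its exon bases with an antisense gene, Gm11491.

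CENP-E and CENP-F are large proteins of the fibrous corona, the first a plus-end kinesin that carries chromosomes to the equator and the second a coiled-coil protein that binds microtubules and dynein regulators. Cenpe read 125, 163, 251 and 128 CPM at GV and 522, 629, 524 and 534 CPM at MII, and Cenpf read 177, 181, 251 and 155 CPM at GV and 41.8, 47.7, 47.7 and 34.5 CPM at MII. For both genes the stages lay apart, in opposite order. Cenpe rose by a log2 fold change of 1.48 (SE 0.28, adjusted p = 0.000757) and 2.00 (SE 0.29, adjusted p = 9.84e-05), the first being 2.07 without native GV replicate 1, and Cenpf fell, at -2.30 (SE 0.26, adjusted p = 1.97e-05) and -2.00 (SE 0.26, adjusted p = 4.96e-05). Per kb, Cenpe was 1.26 to 1.79 times Cenpf at GV and 19.7 to 27.7 times at MII. By longest transcript the higher of these genes was 1.01 to 1.41 times the lower at GV, with Cenpf the higher in sex-converted replicate 1. At MII Cenpe was 15.5 to 21.8 times Cenpf by that length. Cenpj, which elongates centrioles and is no kinetochore protein, read 103, 129, 168 and 97.3 CPM at GV and 379.6, 393, 381 and 371 CPM at MII, and rose by 1.50 (SE 0.24, adjusted p = 0.000261) and 1.74 (SE 0.25, adjusted p = 9.37e-05).

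**Figure D3:**
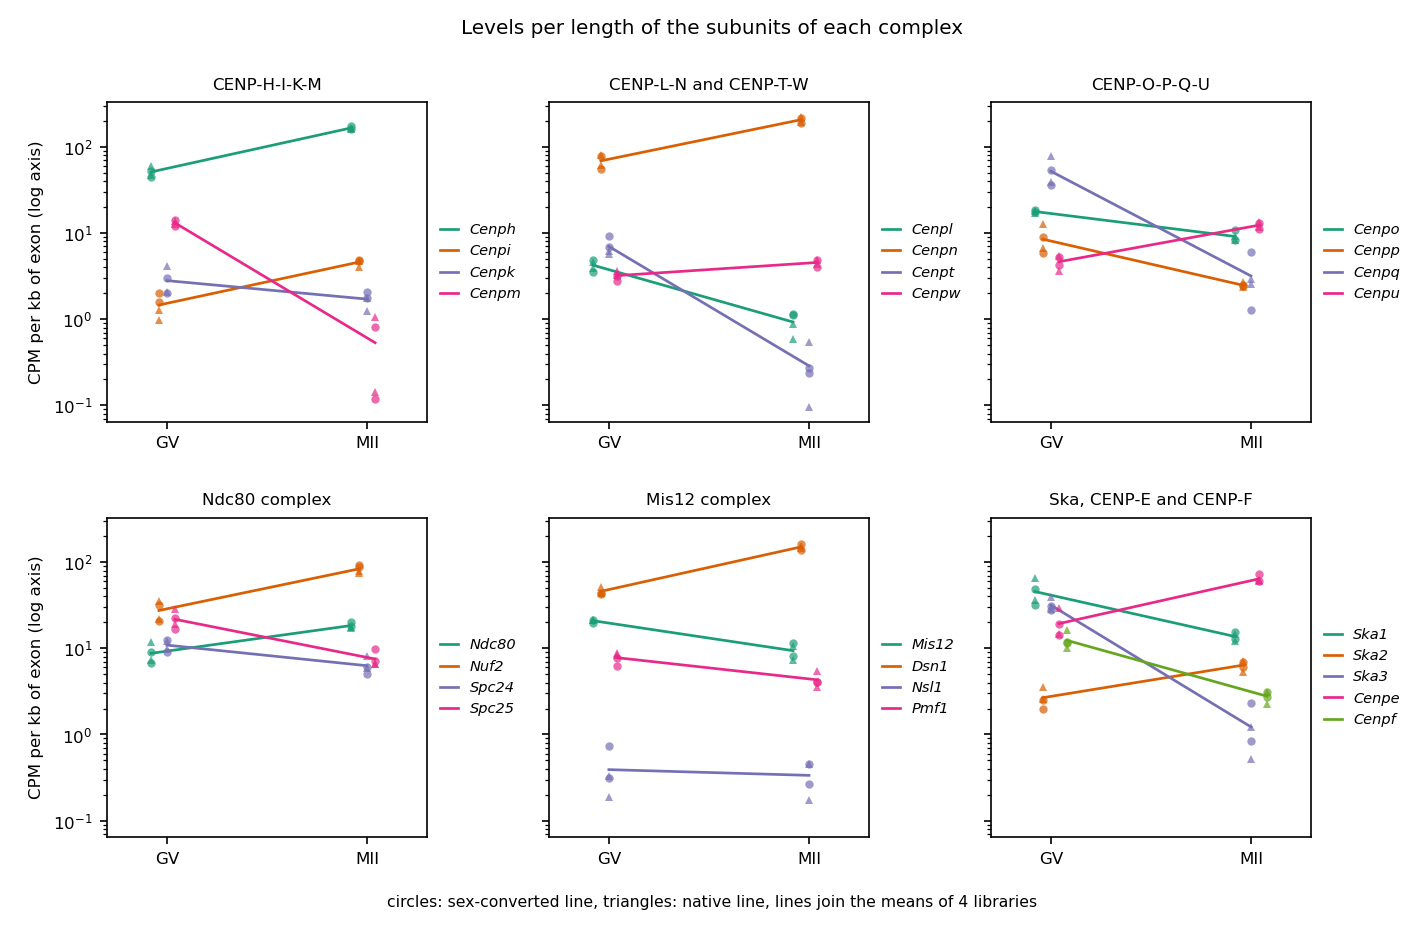
CPM per kilobase of exon (log axis) of the subunits of 6 sets at GV and MII, each point a library (circles sex-converted, triangles native) and each line joining the means of 4 libraries. The lines cross, fan out or draw together. The highest over lowest level of the Ndc80 complex was 3.01 to 3.59 at GV and 11.5 to 18.4 at MII. That of the CENP-O-P-Q-U group was 8.58 to 14.55 at GV and 4.50 to 10.2 at MII, and that of the Ska complex 14.1 to 19.2 and 5.55 to 23.6. The fold change of Ndc80 in the native line, and that of Cenpw in both, where it passed in neither, change sign on library totals alone.

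Levels per length put the same 3 genes, Cenpn, Cenph and Dsn1, at the top of the members at MII in both lines. At GV in the native line Cenpq read 78.6 CPM per kb in replicate 1 and 39.6 in replicate 2, and at MII it had fallen to 1.28 to 5.97 CPM per kb over the 4 libraries. Cenpb and Nsl1 were the lowest at GV in both lines, at 0.0283 and 0.522 CPM per kb in the sex-converted and 0.0588 and 0.260 CPM per kb in the native means.

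A CPE was found in the last 100 bases of the 3′ UTR of 7 of the 34 members: Mis18a, Cenph, Cenpn, Cenpu, Ndc80, Ska2 and Cenpe. Among all 12488 tested genes with an annotated 3′ UTR, 19% had one. In the native line 6 of the 7 rose and none fell, Mis18a being the one that did not pass, and in the sex-converted line all 7 rose. Of the 26 tested members without the element, 7 rose and 16 fell in the native and 7 rose and 15 fell in the sex-converted line. Cenpa, Hjurp, Cenpc1, Cenpi, Nuf2, Dsn1 and Cenpj were the members that rose in both lines with no such word there. On library totals alone 2 of the 7 rose in the native line, Cenph and Cenpn, and 3 in the sex-converted line, where Cenpe was the third, and none fell. Of the 26 without the element 4 rose and 17 fell in the native and 4 rose and 18 fell in the sex-converted line on that scale.

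The same contrast ran through all genes: of those with a CPE in the last 100 bases 52.5% rose and 19.6% fell in the native line, and of those without 26.7% rose and 40.9% fell. The median log2 fold changes were 1.01 and -0.58. In the sex-converted line 51.9% of all genes with the element rose and 19.8% fell, and 26.4% and 41.6% of those without. On library totals alone, in the native line, 35.2% rose and 32.9% fell with the element and 14.4% and 56.6% without it. The sex-converted shares on that scale were 33.2% and 33.2% with the element and 13.7% and 58.3% without it. The count depended on the window. In the last 200 bases 12 members held the element, beside 28.2% of all genes, and 8 of these rose and 2 fell in the native line. In the whole 3′ UTR it was 21 members, beside 59.4% of all genes, and of the 20 that were tested 12 rose and 4 fell in the native line. A poly(A) signal lay in the last 100 bases of 29 members and of 79.2% of all genes. Annotated ends were not checked against reads, a match is no proof of use, and these directions share the scaling limit given above for Mis18a and Ndc80.

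**Figure D4:**
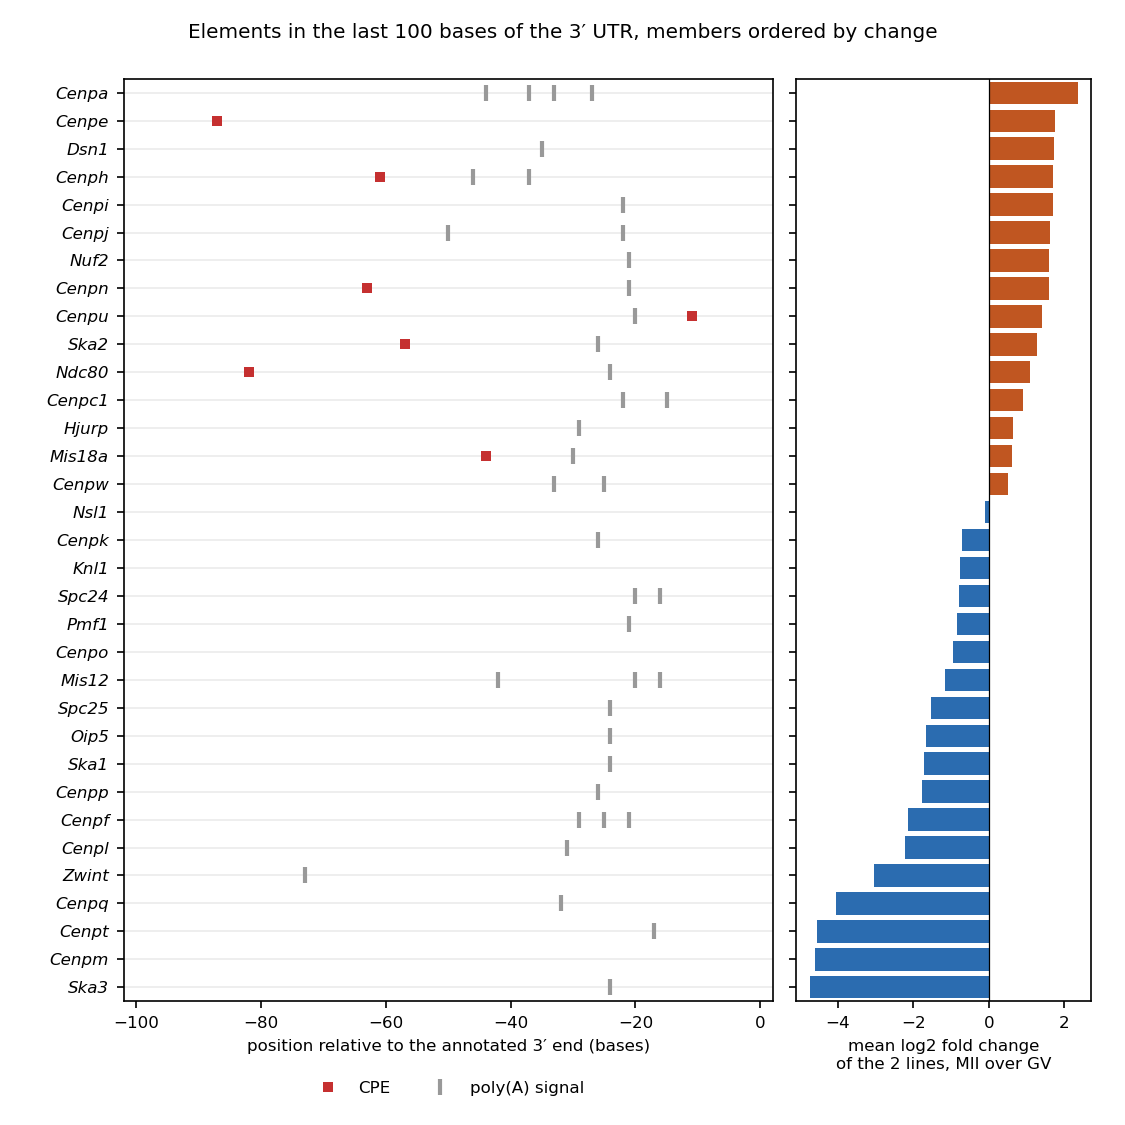
Left, the first base of each CPE (red squares) and poly(A) signal (grey ticks) in the last 100 bases of each tested member's annotated 3′ UTR, counted back from the end. Right, the mean of the 2 lines' log2 fold changes, which orders the genes; all 7 genes with a red square lie in the upper part, where the mean is above 0, although Mis18a and Ndc80 change sign on library totals alone in the native line.

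Between the lines no member was called at either stage or in the line by stage interaction with edgeR or with DESeq2, and among all genes 0.0134% were called at GV, 0.0134% at MII and 0% in the interaction. At an unadjusted edgeR p under 0.05 there was 1 member at GV, Cenpi, 1 at MII, Mis18a, and 0 in the interaction. These were 3.03%, 3.03% and 0% of the tested members, beside 2.14%, 3.68% and 2.2% of all genes. Cenpi read 8.94 and 11.5 CPM in the sex-converted and 7.18 and 5.63 CPM in the native GV libraries, a log2 difference of 0.67 (95% interval 0.06 to 1.28, edgeR adjusted p = 1). Mis18a differed by 0.68 at MII (95% interval 0.02 to 1.35, edgeR adjusted p = 1), with native MII replicate 1 as the low library. Median differences without regard to sign were 0.19 at GV and 0.14 at MII, and 0.19 and 0.23 for all genes. At GV 6 of 33 members had a log2 difference above 0 (18.2%, beside 47.7% of all genes), with a median of -0.18. This lean rested on native GV replicate 1, without which 22 of the 33 were above 0 (all genes 53.4%) and the median was 0.08. In the interaction, which uses the same GV libraries, 24 members were above 0 (72.7%, beside 48.1% of all genes), and 15 without that library.

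The design left room for differences in some members. The 95% interval of the line difference lay within 2-fold in either direction for 22 of 33 members at GV and 24 at MII, and that of the interaction for 12. The members with the widest point differences were Nsl1 at GV (1.00, 95% interval -0.39 to 2.39) and Ska3 at MII (0.80, 95% interval -0.30 to 1.90) and in the interaction (1.01, 95% interval -0.36 to 2.38). Nsl1 had few reads in every library, and Ska3 had few reads at MII but not at GV.

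Of 33 further kinetochore genes that are not members (checkpoint proteins, the chromosomal passenger complex, shugoshins, kinesins and remaining CCAN subunits), 10 rose and 16 fell in each line, where 29.6% and 29.3% of all genes rose and 35.7% and 36.2% fell. In both lines 10 rose and 15 fell, beside 26.9% and 32% of all genes. Sgo2a, a shugoshin that guards centromeric cohesion, read 7.89 to 12.3 CPM at GV and 56.9 to 73.7 CPM at MII. The checkpoint gene Mad2l1 went from 138 to 258 CPM at GV to 757 to 872 CPM at MII, and the kinesin gene Kif18a from 62.2 to 109 CPM to 312 to 357 CPM. Their log2 fold changes in the native and the sex-converted line were 2.40 and 3.01 for Sgo2a, 2.04 and 2.24 for Mad2l1 and 1.91 and 2.13 for Kif18a. Meikin, the meiosis I kinetochore factor that directs sister kinetochores to 1 pole, fell most of these: 526 reads at GV and 3 at MII in the native line, a 104-fold ratio after scaling (95% counting interval 35.5 to 507), and 515 and 9 reads in the sex-converted line, a 30.1-fold ratio (15.8 to 66.3). Zwilch fell, at -4.74 and -4.41 on the log2 scale. Itgb3bp, the gene of CENP-R and thus the remaining partner of Cenpo, Cenpp, Cenpq and Cenpu, fell, at -4.92 and -4.00, on 6 and 8 reads in all at MII. Its 3′ UTR held a CPE starting 93 bases from the annotated end. Of the 9 further genes with a CPE in the last 100 bases, 5 rose and 2 fell in the native line. In the sex-converted line 5 rose and 1 fell. Of the 23 with a 3′ UTR but no CPE there, 5 rose and 14 fell in the native and 5 rose and 15 fell in the sex-converted line.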

How the data were processed

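The authors deposited 1 table of whole read counts, a row per gene, which carries no normalization. Per the submitters' processing notes, Trimmomatic 0.38, HISAT2 2.1.0, featureCounts 2.0.0 and DESeq2 1.30.1 were used with mm10. For strand use, multi-mapped reads and the annotation release, nothing is stated in the sources used here. Names, exon lengths and 3′ UTRs are those of GENCODE M21 (GRCm38, also called mm10; 55144 identifiers matched without version, 241 did not and held 0.00326% of reads).

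The test was that of edgeR 4.0.16 under R 4.3.3 (TMM factors, filterByExpr at a minimum count of 10, glmQLFit and glmQLFTest, two-sided) in 1 fit of all 8 libraries with a coefficient per group and 4 residual degrees of freedom. A gene was called at an adjusted p under 0.05 over all 14929 genes tested. The common dispersion came to a coefficient of variation of 0.243. A standard error is the size of the log2 fold change divided by the root of its F statistic. CPM are counts scaled by library total times TMM factor, and CPM per kb divide these by the union of exons. The fit was tested on simulated data in which a small set of genes changed in 1 group and all other means were equal. That setting differs from these stages, so it does not test the scaling between them. The 2 libraries of a group differed by more than sampling noise in every group.

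The members, role groups, further genes and marker lists were chosen with earlier results of these data known. Every library's value is given for the called member with the largest mean change in each direction of its role group, for Cenpa, Cenpc1, Ndc80, Mis12, Knl1 and Hjurp, and for members called in 1 line. Of the further genes, 3 in each direction are named. Values of other members were added to show whole complexes.

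The replicate numbers were not taken to pair the libraries: of the 6 correlations of deviations between same-numbered libraries, that of the GV groups was -0.747 and that of the MII groups 0.282. Alternatives were RLE factors, library totals alone, other filters, DESeq2 1.42.0, the replicate block, only the libraries compared, each library left out, other 3′ windows and the longest transcript as length. A crossed block was added after seeing the data.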

Additional observations from a re-analysis of the deposited data

How the results depend on the processing

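Scaling by library totals alone, with no TMM factors, moved the counts of members that rose to 6 in the native and 7 in the sex-converted line, and of all genes that rose to 2488 and 2372. The share of calls that were higher went from 45.3% to 24.6% and from 44.7% to 23.4%. With it the log2 fold changes of Hjurp (-0.095), Mis18a (-0.65), Cenpc1 (-0.12), Cenpw (-0.48), Ndc80 (-0.042) and Nsl1 (-0.62) turned in the native line, and those of Hjurp (-0.47, adjusted p = 0.0448) and Cenpw (-0.34) in the sex-converted line. Leaving out 1 library turned Mis18a in the native line (-0.34 without native MII replicate 2, range to 0.66). It also turned Nsl1 in the native line (-0.059 without native GV replicate 1 and -0.57 without native MII replicate 1, range to 0.77). In the sex-converted line Nsl1 turned as well (0.21 without its GV replicate 1, range from -0.98). The replicate numbers were not taken as pairs, since the correlations of deviations between same-numbered libraries ran from -0.747 to 0.282. With the replicate block 12 members rose and 15 fell in the native line and 13 and 15 in the sex-converted line, with Cenpc1 and Cenpk (native, adjusted p = 0.0529 and 0.0543) and Hjurp (sex-converted, adjusted p = 0.0585) no longer called. A crossed pairing of the numbers gave 13 and 17 in the native and 15 and 15 in the sex-converted line. Of the calls over all genes, 45.2% and 44.9% were higher with the replicate block and 45.4% and 45.1% with the crossed pairing. The CPE count went to 12 in the last 200 bases and 21 in the whole 3′ UTR. Cenpn in native oocytes was 94.3 CPM per kb at GV and 276.4 at MII by its longest transcript. The cause of these shifts was not tested. Low read numbers at MII limit Cenpm, Cenpt, Ska3 and Oip5, and at every stage Nsl1 and Cenpb.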
